A study of Drosophila melanogaster with 13 samples.

Results

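Narrow low-scoring Lola.N peaks found in both replicates were a set of 1049 short stretches of the Drosophila melanogaster genome, out of 4676 Lola.N peaks called in replicate N1. They were chosen by measured values: a width under 2000 bp in N1, an N1 score below the median of all N1 peaks (2.45), and an overlap of at least 1 bp with a peak of replicate N2. The set made up 22.4% of the N1 peaks, 31.7% of the 3308 N1 peaks that overlapped an N2 peak, and 19.5% of the bases under N1 peaks. Width and score in N1, and the presence of an N2 peak, are therefore given as a description and carry no test.

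Lola is a BTB zinc finger transcription factor whose gene makes many isoforms that share the BTB domain and differ in their zinc fingers. Lola and the zinc finger factor Nerfin-1 are known for keeping young neurons of the optic lobe, where the fly brain processes vision, from turning back into neuroblasts, the dividing neural stem cells. In Targeted DamID a fusion of the bacterial methylase Dam to the factor, made only in cells with a chosen GAL4 driver, methylates GATC sites close to where the factor contacts DNA, so that a peak marks a stretch between GATC sites and not a single bound base.

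RNA was counted in sorted optic lobe clones of wandering L3 larvae that were lola[E76], nerfin-1[159] or WT, with 3 libraries per genotype. Lola.N Targeted DamID came from ey16F10-GAL4 cells of the L3 brain, with 2 replicates. The file names give Dam alone as the comparison and 0.01 as the FDR limit of the peaks. Samples of Dam alone were not analysed here, and no source used here gives the scale of the score. The count columns name the WT clones FRT42D, the lola[E76] clones Lola42D and the nerfin-1[159] clones Nerfin2A, so the nerfin-1[159] clones have no WT clones made on their own FRT site among these libraries. Each RNA sample pooled sorts of several days, and nothing states that samples came from separate sets of animals, so each p-value speaks only of the spread among such pools. In such bulk samples a changed share of a cell type and a changed amount of RNA per cell cannot be told apart. The DamID cells and the clones are different populations, and both contrasts share the same WT libraries.

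The libraries held 3465601 to 5200223 counts, and 7451 of 17633 genes were tested. RNA of nerfin-1 was 18.4, 6.77 and 2.13 CPM (counts scaled to library size) in nerfin-1[159] clones against 313, 263 and 275 CPM in WT clones (log2 difference -4.98 ± 0.36 SE, edgeR quasi-likelihood adjusted p = 4.16e-08). RNA of lola was 2136, 2087 and 1729 CPM in lola[E76] clones against 1942, 1752 and 1596 CPM in WT clones. The counts are summed over all lola isoforms, so they do not check the allele. Summed over its list, each kind of cell type marker was present in every genotype. Neuroblast markers stood at 370.5 to 422.2 CPM in lola[E76] clones, 897.7 to 1021 CPM in nerfin-1[159] clones and 75.91 to 257.1 CPM in WT clones. Neuron markers stood at 2665 to 3051 CPM in lola[E76], 2478 to 2957 CPM in nerfin-1[159] and 3318 to 3854 CPM in WT clones. Markers of haemocytes and fat body stood at 23.93 to 53.21 CPM in lola[E76], 197.7 to 259.8 CPM in nerfin-1[159] and 3.729 to 11.94 CPM in WT clones. Glial markers were at 46.9 to 55.12 CPM in lola[E76], 15.58 to 43.51 CPM in nerfin-1[159] and 26.64 to 34.61 CPM in WT clones, eye disc markers at up to 14.27 CPM in lola[E76], 8.801 CPM in nerfin-1[159] and 17.31 CPM in WT clones, and no marker was at 0 in every library. The part that such cell mixtures have in the RNA differences below was not tested.

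Most of the low-scoring peaks that N2 shared also scored below the median in N2. Of the 2034 narrow N1 peaks with a score below the median, 51.6% overlapped an N2 peak, against 88.1% of the narrow peaks with a higher score and 73.2% of the wide ones. Scores of the 1049 peaks ran from 0.76 to 2.44 in N1 with a median of 1.90, and the N2 peaks they overlapped scored 0.62 to 3.59 with quartiles at 1.14 and 1.85. The median N2 peak stood at percentile 34.2 of the N2 file, where higher-scoring narrow peaks stood at 75.1 and wide peaks at 51.9. In 789 cases (75.2%) the N2 score lay below the N2 median of 1.86, and in 743 cases (70.8%) the N2 peak was itself narrow and below that median. Only 2 of the 1049 overlapped an N2 peak among the top 10% of N2 scores.

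**Figure D1:**
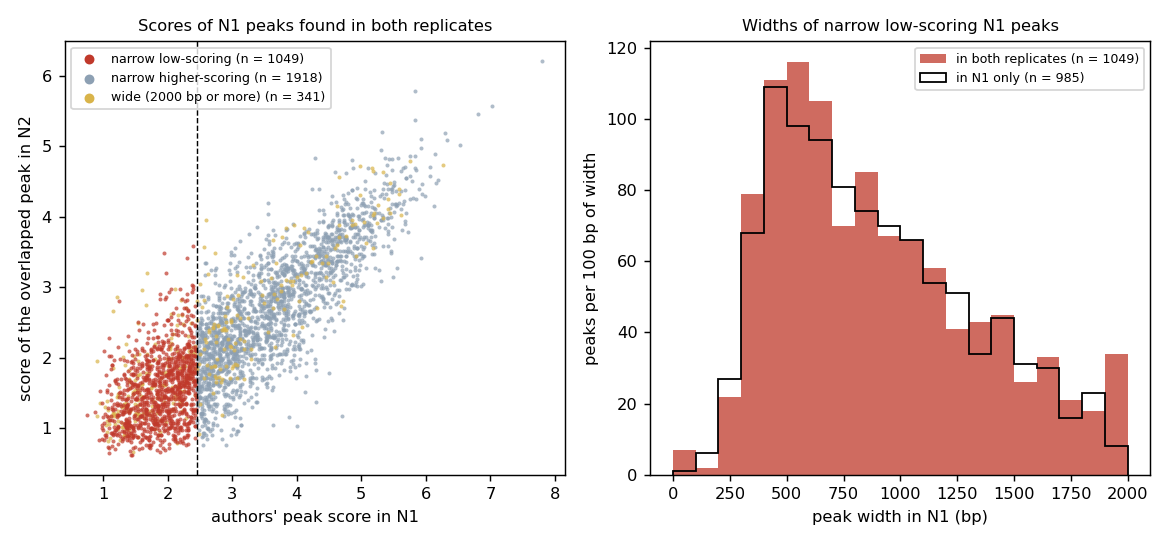
Left, the authors' score of each N1 peak that overlapped an N2 peak (horizontal axis) and the highest score of the N2 peak it overlapped (vertical axis), with narrow low-scoring peaks in red, narrow higher-scoring peaks in grey and wide peaks in yellow, and a dashed line at the N1 median of 2.45. Right, widths in N1 of the narrow low-scoring peaks that overlapped an N2 peak (red) and of those that did not (black line), per 100 bp of width. The red points end at the dashed line because the score chose them, and both width distributions have their median near 810 bp.

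Within the set the N1 score told little about the N2 score. Across the 1049 peaks Spearman's rho between the scores was 0.343, against 0.822 across all 3308 shared N1 peaks, whose range of scores is wider, and rho between the widths was 0.652. These points share 2 replicates and 1 map of GATC sites, so the values are descriptions. The authors' FDR of the peaks had a median of 4.19e-04 in N1 and of 2.75e-04 in N2. It was 0.001 or more for 424 peaks (40.4%) in N1 and for 347 (33.1%) in N2, and 486 peaks were under 0.001 in both.

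Widths ran from 33 to 1998 bp with quartiles of 538, 810 and 1196 bp. Narrow low-scoring peaks of N1 alone had a nearly equal median width of 809 bp, but a lower median score of 1.65 and a higher median FDR of 0.00189. The N2 peak covered the whole N1 peak in 489 cases (46.6%) and less than 50% of it in 176 (16.8%), with a median cover of 94.8%. Cover under 50% held for a peak of cer, nAChRalpha4, klu, lncRNA:CR46003, CG3168, Snap25, lola, opa, chinmo, Nrt and E2f1, named below. In Nrx-1 and ct it held for both peaks of the set. Both boundaries were the same to the base in 281 peaks (26.8%), against 42.1% of the higher-scoring narrow peaks and 22.9% of the wide ones. Of the 221 peaks under 500 bp 42.1% had the same boundaries, against 24.4% of the 443 of 500 to 1000 bp 18.6% of the 253 of 1000 to 1500 bp and 33 of the 132 wider ones. Only 53 peaks (5.05%) overlapped an N2 peak of 2000 bp or more, and 8 overlapped 2 N2 peaks.

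The positions that follow are those of the peak files, which do not name their build. The peak with the highest N2 score, 3.59, was 2L:2998661-3000288 in Ccdc85 and CG3558, with an N1 score of 2.39. The next, 3R:8209274-8211231, scored 1.94 in N1 and 3.49 in N2 and had no gene within 1 kb, but N2 covered only 18.1% of it. X:18645667-18647275 in Rip11, a Rab11 effector, scored 2.30 in N1 and 3.41 in N2. Another lay in fru, the BTB zinc finger gene of male courtship, at 3R:18449975-18450850 with scores of 1.97 in N1 and 3.20 in N2, and the next in Fas3, a homophilic adhesion protein, at 2L:18368048-18369748 with scores of 2.38 and 3.03 and the same boundaries in both replicates. The remaining 3 of the 8 highest were in the septin gene pnut, in CG12535 and in kirre, an immunoglobulin adhesion protein of myoblast fusion and of the optic lobe, with N2 scores of 3.02, 2.98 and 2.97. At the other end, the lowest N1 score, 0.76, belonged to X:4483702-4484201 in bi, the T-box gene of optic lobe patterning, which also lies within lncRNA:CR32773 and scored 1.19 in N2. It was followed by peaks in sgg, the fly GSK-3 kinase (0.87 in N1, 1.23 in N2), in ND-ASHI (0.94 and 0.84), in CG30487 and Sans (0.95 and 1.53) and in stau, the double-stranded RNA-binding protein that localizes messages (0.98 and 1.04).

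Peaks on both sides of the score limit were close in N1, as the rule fixes, but not all in N2. Among tied N1 scores the 3 peaks of lowest N1 FDR were taken on each side. They do not describe all peaks at the limit. The 3 peaks just inside the score limit, in Npc2f, in the spalt zinc finger gene salm and in CG7582, scored 2.44 in N1 and 1.41, 1.27 and 1.44 in N2. The 3 shared narrow peaks just outside scored 2.45 in N1 and 2.38, 2.65 and 1.53 in N2, and 22 N1 peaks were at the median itself. The 3 widest peaks inside the width limit had 1998, 1997 and 1996 bp, and the 3 just outside had 2000, 2002 and 2003 bp.

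The set was spread over the arms much like all N1 peaks. It held 180 peaks on 2L (17.2%), 182 on 2R (17.3%), 19.5% of its peaks on 3L, 248 peaks on 3R (23.6%), 222 on X, 8 on chromosome 4 and 4 on Y. The X had 21.2% of the set, 21.5% of all N1 peaks and 15.2% of the placed genes. The share of narrow low-scoring N1 peaks that overlapped an N2 peak was 48.4% on 2L, 49.2% on 2R, 53.1% on 3L, 55.1% on 3R and 52.5% on X. It was 38.1% of 21 peaks on chromosome 4 and 33.3% of 12 on Y, where the numbers are small.

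Most of these peaks lay more than 2 kb from a stronger or wide shared peak, a distance not measured for the other classes. The median gap to the nearest N1 peak of any kind was 4945 bp, against 3570 bp for higher-scoring narrow peaks, 3759 bp for wide peaks and 6447 bp for narrow low-scoring peaks of N1 alone. The median distance to the nearest shared peak that was stronger or wide was 12730 bp. Within 2 kb of such a peak lay 119 (11.3%) of the set, and 409 (39.0%) were more than 20 kb from one. The median gap to the next peak of the set was 26820 bp, and 306 (29.2%) lay within 10 kb of another.

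Of the 1049 peaks 836 (79.7%) overlapped a gene body of the RefSeq table, and 878 (83.7%) had a gene within 1 kb. The body share was close to that of higher-scoring narrow peaks (79.1%), wide peaks (80.1%) and narrow low-scoring peaks of N1 alone (80.5%). A gene end, start or stop alike since the table gives no strand, lay inside 278 peaks (26.5%), against 24.7% of higher-scoring narrow peaks, 40.5% of the wide and 197 of the 985 narrow low-scoring peaks of N1 alone. This share moved with width: it was 10.4% of the peaks under 500 bp, 23.9% of those of 500 to 1000 bp, 39.9% of those of 1000 to 1500 bp and 36.4% of the wider ones. Wholly inside a gene body lay 558 peaks (53.2%), against 60.5% of the narrow low-scoring peaks of N1 alone. The median widths of those last 2 groups differed by 1 bp.

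Within 1 kb of the set lay 1430 of the 17796 placed genes (8.04%). Of these 1325 had 1 such peak, 95 had 2 and 10 had 3 or more, and 318 (22.2%) also had a higher-scoring or wide shared peak. They were 1255 protein-coding genes (87.8%, against 78.3% of all placed genes), 90 lncRNA genes and 33 antisense RNA genes among others. Their median length was 3017 bp, against 1694 bp over all placed genes, 3620 bp for genes near a higher-scoring narrow peak and 4776 bp for genes near a wide one. Length goes with the chance of having any peak: 5.83% of genes under 3 kb were near a peak of the set, 10.5% of those of 3 to 10 kb, 13.4% of those of 10 to 30 kb and 24.2% of those of 30 kb or more.

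**Figure D2:**
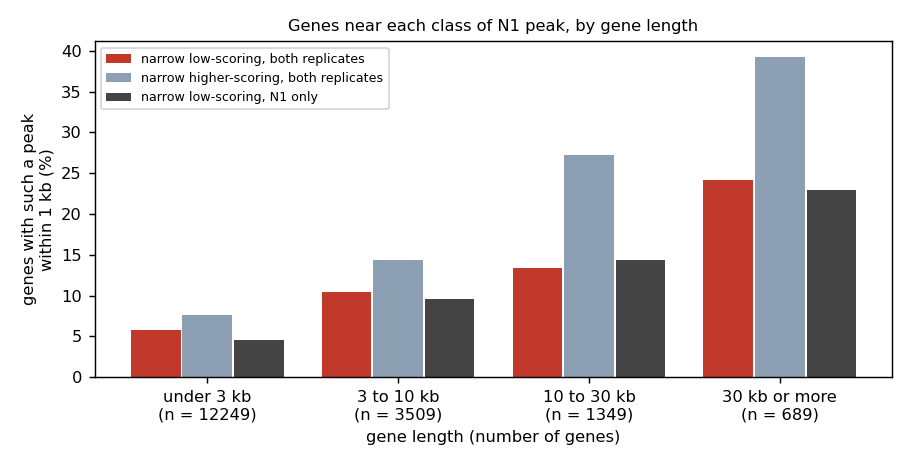
Share of placed genes with a peak of each class within 1 kb of the gene (vertical axis, percent) by gene length (horizontal axis, with the number of genes), for narrow low-scoring peaks of both replicates (red), narrow higher-scoring peaks of both replicates (grey) and narrow low-scoring peaks of N1 alone (black). All 3 shares are higher for longer genes, and the red bars run from 5.83% to 24.2%.

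The genes with most such peaks were of 2 kinds. lncRNA:CR32773, which is 223710 bp long and overlaps bi, had 6, and CG32816, of 154151 bp, had 4, but both also had 10 or more higher-scoring narrow shared peaks. With 3 each followed Caper, a splicing factor homologue, puc, the phosphatase that shuts off JNK signalling, csw, the fly SHP2 phosphatase, boi, a Hedgehog co-receptor, disco-r, a zinc finger gene, lov, a BTB gene, tun and CenG1A. In Caper, puc, boi and disco-r no stronger or wide shared peak lay near the gene. The 3 peaks of puc, a gene of 16963 bp, were 3R:8110963-8111824, 3R:8115169-8117164 and 3R:8119675-8121472, with N1 scores of 2.36, 1.61 and 1.37 and N2 scores of 2.04, 2.14 and 1.62.

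Lists of genes of neural fate were set beside the peaks. In the list of BTB zinc finger and commitment factors 8 of 13 had 1 (pros, br, lola, chinmo, psq, fru, ttk and bab1), and in the neuroblast list 8 of 15 (brat, klu, baz, numb, ham, wor, par-6 and insc). Of the medulla temporal factors, which neuroblasts of the outer optic lobe express in turn, 5 of 13 had 1 (hth, scro, opa, dac and slp1), and of the medulla neuron identity factors 6 of 17 (ct, toy, Vsx1, svp, onecut and run). Of guidance and adhesion genes 9 of 23 had 1, of early and late timing genes 3 of 11 and of glial genes 3 of 6. The counts were 3 of 15 for the cell cycle, 3 of 18 for chromatin regulators, 2 of 15 for synapse and transmitter genes, 1 of 14 for the Notch pathway (mam), 1 of 19 for ion channels (KCNQ), 1 of 12 for JNK, damage and death genes (puc) and 5 of 92 for ribosomal proteins.

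**Figure D3:**
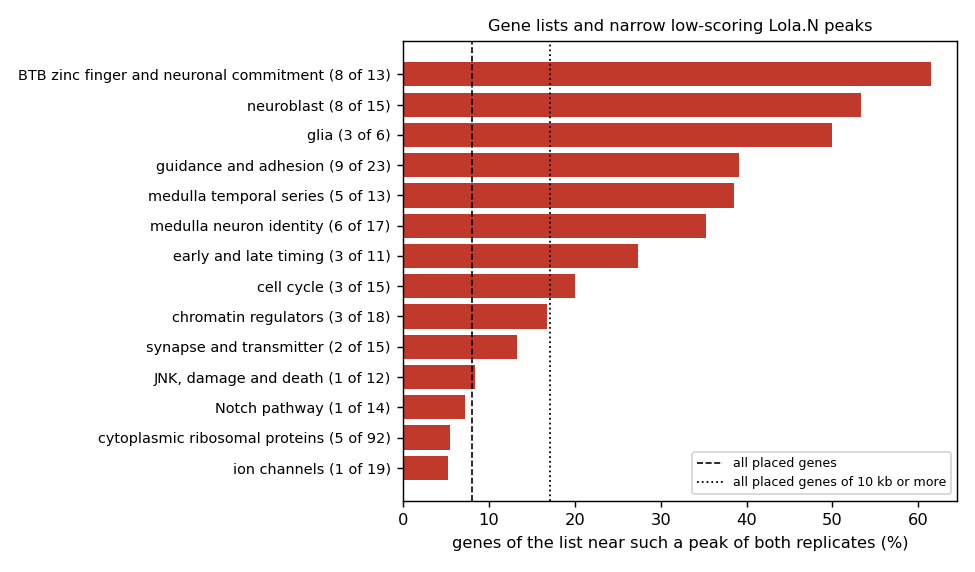
Share of the genes of each list that had a narrow low-scoring peak of both replicates within 1 kb (horizontal axis, percent), with the number of such genes and of matched genes beside each list name. The dashed line marks all placed genes (8.04%) and the dotted line placed genes of 10 kb or more (17.1%). The BTB and neuroblast lists lie highest and ion channels lowest.

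These lists differ in gene length and in how many of their genes had other shared peaks. Among genes of 10 kb or more the share was 348 of 2038 (17.1%) over all genes, 8 of 12 for the BTB list, 6 of 9 for the neuroblast list, 4 of 7 for the temporal list, 4 of 13 for the identity list and 9 of 22 for the guidance list. It was 2 of 11 for synapse genes and 1 of 16 for ion channels, although those are long too. Over all lists 34 of the 57 genes near the set also had a higher-scoring or wide shared peak nearby, among them 8 of 8 BTB genes, 6 of 8 neuroblast genes and 5 of 9 guidance genes, but 2 of 5 temporal genes, 1 of 3 cell cycle genes and neither of the 2 synapse genes. Over the whole lists such other peaks lay near 12 of 13 BTB genes, 11 of 15 neuroblast genes and 9 of 11 timing genes. They lay near 7 of 15 synapse genes and 6 of 19 ion channels. Nearness to the neural fate lists was therefore not particular to the set.

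The RNA of genes near the set was set beside that of all tested genes. At an edgeR adjusted p under 0.05, 44 of the 864 tested genes near the set were higher in lola[E76] clones (5.09%), where 3.58% of all 7451 tested genes were, and 42 were lower (4.86%), where 2.91% of all were. In nerfin-1[159] clones 64 were higher (7.41%, against 5.66% of all) and 57 lower (6.60%, against 6.27% of all), and the share of lower genes is thus near the background. The median log2 difference of the 864 genes was 0.00 for lola[E76] and 0.01 for nerfin-1[159] clones, where that of all tested genes was -0.00 and 0.00. Without WT replicate 1 the number of genes near the set that were lower in lola[E76] clones was 27, and without WT replicate 2 the number higher in nerfin-1[159] clones was 39. Calls over all tested genes, in both directions together, also fell in these fits. They went from 484 to 315 in lola[E76] clones and from 889 to 593 in nerfin-1[159] clones. Genes near the set that could not be tested numbered 555 of 1419 in the count table.

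Genes near the set were then divided by whether they had other shared peaks. Of the 616 tested genes with no other shared peak nearby 52 were called in lola[E76] clones (8.44%, 26 in each direction) and 64 in nerfin-1[159] clones (10.4%), where 6.50% and 11.9% of all tested genes were. Of the 248 that also had another shared peak 34 (13.7%) and 57 (23.0%) were called. Genes near a higher-scoring narrow peak were called in 12.1% of cases in lola[E76] clones and 20.1% of cases in nerfin-1[159] clones, those near a narrow low-scoring peak of N1 alone in 8.91% and 15.9%, and those near no N1 peak in 4.49% and 9.82%. The differences between these sets, which share genes, were not tested.

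**Figure D4:**
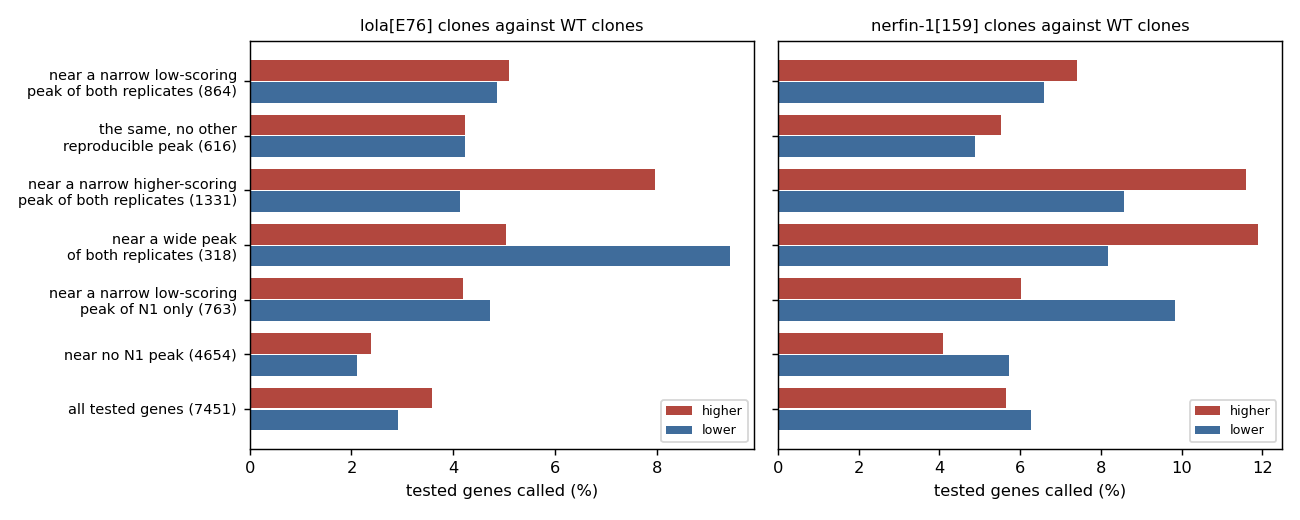
Share of tested genes (horizontal axis, percent) called higher (red) or lower (blue) at an edgeR adjusted p under 0.05 in lola[E76] clones against WT clones (left) and in nerfin-1[159] clones against WT clones (right), for genes near each class of peak, with the number of tested genes in brackets. Genes near a narrow low-scoring peak of both replicates stand at 5.09% higher and 4.86% lower in lola[E76] clones, and all tested genes at 3.58% and 2.91%.

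Gene length, expression and chromosome arm moved with these shares. Tested genes near the set had a median length of 4804 bp and a median WT level of 25.2 CPM, against 3175 bp and 18.0 CPM over all tested genes. In lola[E76] clones the share called was 4.73% near the set and 3.77% away from it for genes under 3 kb, 7.14% and 6.46% for genes of 3 to 10 kb, 11.8% and 10.7% for genes of 10 to 30 kb, and 23.5% and 11% for the 594 genes of 30 kb or more. In nerfin-1[159] clones the longest genes were called in 32.9% of cases near the set and 37.1% away from it. At 50 CPM or more in WT the lola[E76] shares were 17.3% near the set and 9.99% away, and under 10 CPM they were 4.81% and 4.53%. On 2R, the arm of lola itself, 29 of 167 genes near the set were called in lola[E76] clones (17.4%, against 6.81% away from it), and off 2R 57 of 697 (8.18%, against 5.76%). Variants linked to the lola[E76] allele on 2R and the loss of Lola cannot be told apart for genes of that arm. Called genes of 2R named below include Strn-Mlck, ITP, cer, Pdk, l(2)41Ab, CG9380 and Psc. The same limit holds in nerfin-1[159] clones for 3L, the arm of nerfin-1. There 16 of 125 genes near the set were called (12.8%, against 11.6% of all tested genes of 3L). Those named below include klu, lncRNA:CR46003, CG43693, Snap25 and polo. No source used here gives the strand setting of the authors' counting, so called genes that overlapped another tested gene, 23 of 86 in lola[E76] clones and 42 of 121 in nerfin-1[159] clones, are uncertain. Among the called genes named here these are Strn-Mlck, ITP, Mur2B, nAChRalpha4, l(2)41Ab, CG9380, lncRNA:CR46003, CG3168, pros, br, lola, hth, unc-13, Nrt, Syp, dpn, kirre, insc, CenG1A, aub and Cyp6d5.

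Genes near the set were named by the size of their difference only at a mean log2 CPM of at least 3 and with libraries that did not overlap between the genotypes compared. Among them were regulators that neuroblasts and young neurons use. RNA of Imp, an RNA-binding protein of young neuroblasts, was 2563, 2953 and 1893 CPM in lola[E76] clones, 677, 1531 and 1094 CPM in nerfin-1[159] clones and 121, 231 and 202 CPM in WT clones. Every library of both mutants was above every WT library, and the log2 difference was 3.74 ± 0.26 SE in lola[E76] clones (edgeR adjusted p = 4.13e-08) and 2.57 ± 0.25 in nerfin-1[159] clones (edgeR adjusted p = 1.3e-06). Its narrow low-scoring peak, X:10804998-10805809, scored 2.39 in N1 and 2.23 in N2, and the gene also had 8 higher-scoring or wide shared peaks. RNA of wor, a Snail-family zinc finger factor of neuroblasts, was 41.4, 80.2 and 37.8 CPM in lola[E76] clones, 93.2, 73.2 and 85.3 CPM in nerfin-1[159] clones and 9.45, 13.5 and 19.5 CPM in WT clones. Here too both mutants lay above WT without overlap, with a log2 difference of 1.89 ± 0.30 in lola[E76] clones (edgeR adjusted p = 0.0004) and 2.55 ± 0.30 in nerfin-1[159] clones (edgeR adjusted p = 1.14e-05), and the peak, 2L:15424450-15425356, scored 1.78 in N1 and 2.28 in N2.

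RNA of ttk, the BTB repressor Tramtrack that is known to block neuronal fate, was 153, 152 and 161 CPM in lola[E76] clones, 20.7, 32.6 and 42.1 CPM in nerfin-1[159] clones and 21.6, 15.4 and 27.5 CPM in WT clones. It rose in lola[E76] clones by a log2 difference of 2.85 ± 0.25 (edgeR adjusted p = 7.66e-07), while the nerfin-1[159] libraries overlapped WT. Its peak, 3R:31730550-31731076, scored 2.15 in N1 and 2.14 in N2, and 4 other shared peaks lay near the gene. RNA of Strn-Mlck, a myosin light chain kinase of muscle, was 1386, 1111 and 1272 CPM in lola[E76] clones, 51.8, 64.2 and 57.04 CPM in nerfin-1[159] clones and 149.6, 135 and 113 CPM in WT clones. The lola[E76] libraries lay far above WT (log2 difference 3.25 ± 0.14, edgeR adjusted p = 1.98e-11) and the nerfin-1[159] libraries below it (-1.20 ± 0.14, edgeR adjusted p = 7.42e-06). Its peak was among the weaker ones, 2R:15957268-15958320 with 1.32 in N1 and 0.96 in N2, and the gene overlaps another tested gene and lies on 2R.

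Within those limits the other genes with the largest increases in lola[E76] clones were a neuropeptide gene, a protease inhibitor gene and 2 less known genes. CG14052, PPO3, GstE6, ASPP, Vinc, E23, nahoda and CG42390 were also called, with larger log2 differences than ITP, but did not meet the limits. RNA of ITP, a neuropeptide of water balance on 2R, was 87.6, 53.4 and 44.7 CPM in lola[E76] clones, 4.81, 4.51 and 5.60 CPM in nerfin-1[159] clones and 9.72, 5.62 and 18.9 CPM in WT clones. The lola[E76] libraries were all above WT, with a log2 difference of 2.42 ± 0.38 (edgeR adjusted p = 0.000343). RNA of CG33639 on X, whose peak X:18212474-18213279 (2.37 in N1, 1.12 in N2) was the only N1 peak near the gene, was 46.2, 20.9 and 29.3 CPM in lola[E76] clones, 1.13, 2.51 and 4.26 CPM in nerfin-1[159] clones and 7.02, 9.16 and 7.77 CPM in WT clones. It rose in lola[E76] clones by 2.00 ± 0.42 in log2 (edgeR adjusted p = 0.00503). RNA of cer, a cathepsin inhibitor on 2R whose only N1 peak lay 328 bp outside the gene, differed by 1.75 ± 0.31 (edgeR adjusted p = 0.00132), with 39.7, 26.3 and 26.8 CPM in lola[E76] clones and 8.37, 9.58 and 9.47 CPM in WT clones. Mur2B, a mucin-related gene, differed by 1.75 ± 0.36 (edgeR adjusted p = 0.00423), but it is 145235 bp long, overlaps other tested genes and shares its narrow low-scoring peak, X:1603298-1604998, with br. Another 12 shared peaks that were higher-scoring or wide lay near Mur2B.

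**Figure D5:**
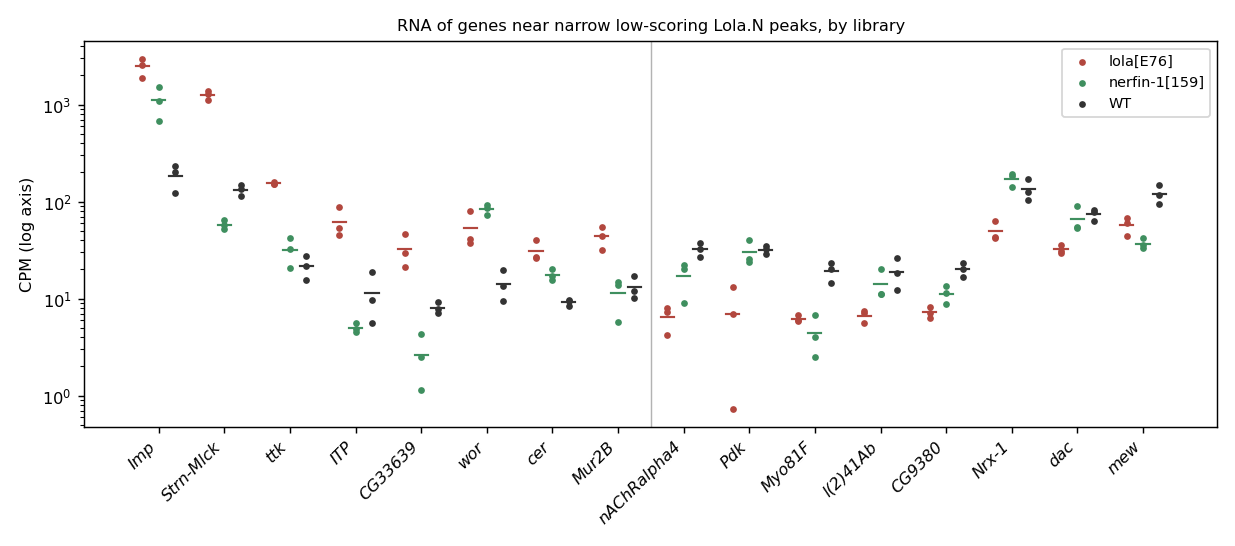
RNA level (vertical axis, CPM, log axis) of the 8 genes most higher (left of the grey line) and the 8 most lower (right) in lola[E76] clones among genes near the set, chosen by these differences. Each point is a library and each bar the mean of 3, with lola[E76] in red, nerfin-1[159] in green and WT in black. The points of lola[E76] and WT do not overlap in any of the 16 genes because the rule asked for that.

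Genes that were lower in lola[E76] clones within the same limits included neuronal surface proteins. Gpo1, with a log2 difference of -4.06, and CG15646, with -1.19, were also called lower but did not meet the limits. RNA of nAChRalpha4, an acetylcholine receptor subunit with 2 peaks of the set and no other shared peak, was 7.99, 7.33 and 4.24 CPM in lola[E76] clones, 22.1, 20.3 and 9.06 CPM in nerfin-1[159] clones and 32.4, 37.3 and 27.1 CPM in WT clones. It fell in lola[E76] clones by 2.30 in log2 (SE 0.38, edgeR adjusted p = 0.000661), and its peaks were 3L:23204974-23205792 (2.24 in N1, 2.08 in N2) and 3L:23208479-23209493 (1.01 and 2.09). RNA of Nrx-1, the presynaptic adhesion protein neurexin, was 42.1, 42.7 and 63.4 CPM in lola[E76] clones, 181, 193 and 141 CPM in nerfin-1[159] clones and 171, 126 and 105 CPM in WT clones. The lola[E76] libraries alone were below WT (log2 difference -1.44 ± 0.20, edgeR adjusted p = 0.000157), and both shared peaks near it were of the set, 3R:22467939-22468635 (2.19 and 2.50) and 3R:22487782-22488874 (1.81 and 0.93). N2 covered only 33.3% and 15.1% of these 2 peaks, and 1 of them overlapped the gene body. RNA of mew, an integrin alpha subunit, was 44.3, 67.7 and 60.3 CPM in lola[E76] clones, 35.7, 33.3 and 41.6 CPM in nerfin-1[159] clones and 147, 95.4 and 118 CPM in WT clones. Both mutants lay below WT, by -1.06 ± 0.20 in lola[E76] (edgeR adjusted p = 0.00243) and -1.70 ± 0.21 in nerfin-1[159] clones (edgeR adjusted p = 1.69e-05).

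RNA of dac, a nuclear factor of eye and optic lobe development, was 30.98, 29.7 and 35.97 CPM in lola[E76] clones, 88.9, 54.4 and 52.8 CPM in nerfin-1[159] clones and 62.4, 81.6 and 77.1 CPM in WT clones. It fell in lola[E76] clones by 1.19 in log2 (SE 0.22, edgeR adjusted p = 0.002), and its peak, 2L:16468949-16469610, scored 2.26 in N1 and 2.47 in N2 with no other shared peak near the gene. RNA of Pdk, the kinase that shuts off pyruvate dehydrogenase, was 0.726, 6.89 and 13.2 CPM in lola[E76] clones, 40.5, 24.1 and 25.3 CPM in nerfin-1[159] clones and 28.9, 32.1 and 34.7 CPM in WT clones. All lola[E76] libraries lay below WT (log2 difference -2.19 ± 0.51, edgeR adjusted p = 0.0107), but they spread widely, the lowest value resting on 3 counts. Myo81F, l(2)41Ab and CG9380 completed the list of lower genes with log2 differences of -1.64, -1.49 and -1.47 and edgeR adjusted p of 0.034, 0.0331 and 0.0199. Their calls were lost when single libraries were left out, for Myo81F any WT or lola[E76] library (adjusted p up to 0.186), for l(2)41Ab WT replicates 1 and 2 or any lola[E76] library (up to 0.211), and for CG9380 WT replicates 1 and 3 or lola[E76] replicate 2 (up to 0.109). Pdk, l(2)41Ab and CG9380 lie on 2R, and Myo81F spans 1965857 bp with 8 N1 peaks near it.

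In nerfin-1[159] clones the genes with the largest differences within the same limits included a neuroblast factor on the higher side and a synaptic protein on the lower side. Called with larger increases than klu were PPO3, aub and GstE6, and with larger decreases than CG3168 were Cyp6d5, CG11191 and CG42390. These did not meet the limits. RNA of klu, a zinc finger factor that maintains neuroblasts, was 144, 117 and 129 CPM in lola[E76] clones, 494, 556 and 638 CPM in nerfin-1[159] clones and 28.6, 132 and 117 CPM in WT clones. The nerfin-1[159] libraries stood apart (log2 difference 2.59 ± 0.32, edgeR adjusted p = 1.7e-05), while the lola[E76] libraries overlapped WT, and its peaks were 3L:11002208-11003265 (1.74 in N1, 2.13 in N2) and 3L:11007226-11007942 (2.04 and 1.00). lncRNA:CR46003 was 718, 1055 and 1129 CPM in nerfin-1[159] clones and 167, 241 and 223 CPM in WT clones (2.20 ± 0.18, edgeR adjusted p = 1.3e-07), though it overlaps another tested gene. CG43693 differed by 2.08 ± 0.53 (edgeR adjusted p = 0.012), a call lost without WT replicate 1 or 2 or nerfin-1[159] replicate 3 (adjusted p up to 0.067).

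RNA of Snap25, a SNARE of synaptic vesicle fusion, was 33.2, 24.6 and 15.4 CPM in lola[E76] clones, 7.36, 13.04 and 6.93 CPM in nerfin-1[159] clones and 42.4, 38.3 and 29.8 CPM in WT clones. It fell in nerfin-1[159] clones by 2.00 in log2 (SE 0.35, edgeR adjusted p = 0.000552). The N2 peak covered the whole of its peak 3L:24134928-24135732 but only 0.0991% of the other, 3L:24231263-24232271, an overlap that the 1 bp rule admits. RNA of shakB, an innexin of electrical synapses, was 76.5, 67.4 and 61.4 CPM in lola[E76] clones, 9.63, 12.04 and 6.40 CPM in nerfin-1[159] clones and 31.3, 37.5 and 39.4 CPM in WT clones. The nerfin-1[159] libraries were below and the lola[E76] libraries above WT, by -1.94 ± 0.26 (edgeR adjusted p = 4.76e-05) and by 0.92 ± 0.24 (edgeR adjusted p = 0.0226), and this second call was lost without any 1 WT library or lola[E76] replicate 1 or 2 (adjusted p up to 0.11). Nep3, a neprilysin peptidase, fell by 2.08 (SE 0.29, edgeR adjusted p = 6.64e-05), with 19.8, 8.02 and 11.99 CPM in nerfin-1[159] clones and 50.2, 71.8 and 46.2 CPM in WT clones. Myo81F differed by -2.13 ± 0.47 (edgeR adjusted p = 0.00449). Myo81F, Snap25 and shakB are 1965857, 225026 and 165980 bp long, and long genes were more often near the set. CG3168 differed by -2.83 ± 0.62 (edgeR adjusted p = 0.00449), which rested on WT replicate 3: without it the log2 difference was -1.49 and the adjusted p 0.0678.

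Read by role, the neuroblast genes near the set that passed the test were all higher in the mutants. Of the 8, 2 rose in lola[E76] clones, wor and baz, and 5 in nerfin-1[159] clones, klu, wor and baz among them, and none fell; of the whole list of 15, 5 rose and 1 fell in lola[E76] clones and 10 rose in nerfin-1[159] clones. The median log2 difference of the 8 was 0.23 for lola[E76] and 1.16 for nerfin-1[159] clones. RNA of baz, the Par-3 polarity protein that directs asymmetric division, was 154, 223 and 194 CPM in lola[E76] clones, 166, 189 and 229 CPM in nerfin-1[159] clones and 61.3, 92.1 and 94.7 CPM in WT clones. Both mutants lay above WT without overlap, with an edgeR adjusted p of 0.000305 in lola[E76] clones, and of 0.000125 and a log2 difference of 1.23 ± 0.18 in nerfin-1[159] clones, and its peak was X:17165405-17166748 (1.85 in N1, 1.26 in N2). RNA of brat, a translational repressor passed to the differentiating daughter, overlapped between all 3 genotypes, with 3244, 3668 and 2785 CPM in lola[E76] clones, 3492, 3176 and 3018 CPM in nerfin-1[159] clones and 3612, 3440.3 and 3339 CPM in WT clones.

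Among the BTB and commitment genes 1 of 8 rose in lola[E76] clones, ttk, and none fell, while in nerfin-1[159] clones 1 rose, lola, and 2 fell, pros and br. Of the whole list of 13, 1 rose and 2 fell in lola[E76] clones, and 2 rose and 3 fell in nerfin-1[159] clones. RNA of pros, the homeodomain factor that ends neuroblast self-renewal, was 12645, 8006 and 9014 CPM in lola[E76] clones, 4805, 6602 and 5239.8 CPM in nerfin-1[159] clones and 13416, 17302 and 11367 CPM in WT clones. It fell in nerfin-1[159] clones by 1.34 in log2 (SE 0.16, edgeR adjusted p = 1.3e-05), while the lola[E76] libraries overlapped WT (-0.50 ± 0.16, edgeR adjusted p = 0.0639), a call gained without WT replicate 3 or lola[E76] replicate 1. Its peak was 3R:11354671-11355379 (2.33 in N1, 1.81 in N2), 1 of 9 N1 peaks near the gene. RNA of lola was 2430.2, 2638 and 2628 CPM in nerfin-1[159] clones and 1942, 1752 and 1596 CPM in WT clones, higher by 0.54 ± 0.10 (edgeR adjusted p = 0.00124), and its own peaks of the set were 2R:10480507-10481246 (2.18 and 1.43) and 2R:10524155-10524494 (2.28 and 2.00). The call of br (-0.35 ± 0.11, edgeR adjusted p = 0.0486) was lost without WT replicate 1 or 2 or nerfin-1[159] replicate 2 or 3. Higher-scoring or wide shared peaks numbered 8 near pros, 8 near br, 4 near lola and 3 near chinmo. RNA of chinmo, the BTB gene of early temporal identity whose peak 2L:1705031-1705796 (1.74 and 1.00) lay 348 bp outside the gene, was 1753, 1729 and 1421 CPM in lola[E76] clones, 981, 1224 and 1067 CPM in nerfin-1[159] clones and 1337, 1569 and 1228 CPM in WT clones. Its log2 differences of 0.25 ± 0.12 in lola[E76] (edgeR adjusted p = 0.26) and -0.34 ± 0.12 in nerfin-1[159] clones (edgeR adjusted p = 0.0713) did not pass, though the nerfin-1[159] difference passed without WT replicate 3 or nerfin-1[159] replicate 2.

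Of the 5 temporal genes 1 rose and 2 fell in lola[E76] clones, and 1 rose and 1 fell in nerfin-1[159] clones. Of the whole list of 13, 1 rose and 5 fell in lola[E76] clones, and 4 rose and 2 fell in nerfin-1[159] clones. RNA of hth, the homeodomain factor of the first temporal window, was 1867, 2315 and 1947 CPM in lola[E76] clones, 559, 697 and 662 CPM in nerfin-1[159] clones and 1009, 1359 and 1158 CPM in WT clones. The lola[E76] libraries were all above WT and the nerfin-1[159] libraries all below it, by 0.80 ± 0.12 (edgeR adjusted p = 0.000303) and -0.88 ± 0.12 (edgeR adjusted p = 6.62e-05), and its peaks were 3R:10533026-10533279 (1.30 in N1) and 3R:10626505-10627000 (1.83 in N1, 2.14 in N2). Another 4 shared peaks that were higher-scoring or wide lay near hth. RNA of scro, an NK2 homeodomain factor of late windows, fell in lola[E76] clones by 0.63 in log2 (SE 0.12, edgeR adjusted p = 0.00339), with 215, 235 and 195 CPM in lola[E76] clones and 377, 314 and 308 CPM in WT clones. RNA of opa, a Zic factor with 2 peaks of the set, was 45.5, 50.6 and 27.3 CPM in lola[E76] clones, 110.1, 78.2 and 134 CPM in nerfin-1[159] clones and 71.8, 62.5 and 58.2 CPM in WT clones. Its rise in nerfin-1[159] clones (0.74 ± 0.23, edgeR adjusted p = 0.0392) was lost without any 1 WT library or nerfin-1[159] replicate 1 or 3 (adjusted p up to 0.237).

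Of the 6 identity genes 1 fell in lola[E76] clones, and 1 rose and 3 fell in nerfin-1[159] clones. Of the whole list of 17, 1 rose and 5 fell in lola[E76] clones, and 2 rose and 6 fell in nerfin-1[159] clones. RNA of toy, a Pax6 gene on chromosome 4, was 149.8, 107 and 139 CPM in lola[E76] clones, 161, 185 and 158 CPM in nerfin-1[159] clones and 286, 207 and 234 CPM in WT clones. It fell in lola[E76] clones by 0.87 in log2 (SE 0.16, edgeR adjusted p = 0.00132), and its peak, 4:1005875-1007315, scored 1.40 in N1 and 1.23 in N2. Its call in nerfin-1[159] clones (-0.53 ± 0.16, edgeR adjusted p = 0.0313) was lost without WT replicate 1 or 3 or nerfin-1[159] replicate 1 or 3 (adjusted p up to 0.189). RNA of ct, a Cut homeodomain factor, was 1050.2, 1613 and 1269 CPM in lola[E76] clones, 949.9, 646 and 789 CPM in nerfin-1[159] clones and 1554, 1341 and 1266 CPM in WT clones. Only the nerfin-1[159] libraries were all below WT (-0.80 ± 0.15, edgeR adjusted p = 0.000999). Vsx1, a homeodomain factor of central medulla neurons, was lower in nerfin-1[159] clones by -0.75 ± 0.21 (edgeR adjusted p = 0.0256), a call lost without WT replicate 1 or 3 or nerfin-1[159] replicate 1 or 2.

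Both synapse genes near the set, unc-13 and Snap25, fell in nerfin-1[159] clones, and unc-13 also in lola[E76] clones. Of the whole list of 15, 4 fell in lola[E76] clones, and 1 rose and 8 fell in nerfin-1[159] clones. RNA of unc-13, which primes synaptic vesicles, was 530.2, 496 and 476 CPM in lola[E76] clones, 420.5, 395 and 379 CPM in nerfin-1[159] clones and 900.3, 763 and 751 CPM in WT clones. It fell in both mutants, by 0.68 in log2 in lola[E76] (SE 0.11, edgeR adjusted p = 0.000436) and by 1.01 in nerfin-1[159] clones (SE 0.11, edgeR adjusted p = 4.36e-06), and its peak, 4:909775-910473, was the only N1 peak near the gene (2.09 in N1, 1.57 in N2). Of the 9 guidance and adhesion genes 1 rose and 1 fell in lola[E76] clones and 1 fell in nerfin-1[159] clones, against 1 and 2 in lola[E76] clones and 4 lower in nerfin-1[159] clones over the whole list of 23. RNA of Nrt, the adhesion protein Neurotactin, was 461, 398 and 359 CPM in lola[E76] clones, 742, 806 and 732 CPM in nerfin-1[159] clones and 869, 629 and 583 CPM in WT clones. It fell in lola[E76] clones by 0.77 in log2 (SE 0.14, edgeR adjusted p = 0.00137), but N2 covered only 4.83% of its peak, 3L:16773221-16773738 (1.95 in N1, 2.47 in N2). RNA of Dscam1, a receptor of self-avoidance with 2 peaks of the set and 3 other shared peaks, was lower in nerfin-1[159] clones by -0.57 ± 0.15 (edgeR adjusted p = 0.0127), a call lost without WT replicate 2 or nerfin-1[159] replicate 1. Of the 3 chromatin regulators Psc, a Polycomb group protein, was lower in lola[E76] clones by -0.43 ± 0.13 (edgeR adjusted p = 0.0456), a call lost without any 1 WT or lola[E76] library or nerfin-1[159] replicate 2, and CTCF and Su(var)3-9 did not pass. Of the whole list of 18 chromatin regulators, 1 rose and 1 fell in lola[E76] clones, and 2 rose in nerfin-1[159] clones. KCNQ, the 1 ion channel near the set, did not pass at 2.42 to 6.68 CPM in lola[E76], 3.26 to 4.81 CPM in nerfin-1[159] and 2.46 to 8.91 CPM in WT clones. Of the whole list of 19 ion channels, 1 rose and 5 fell in lola[E76] clones, and 13 fell in nerfin-1[159] clones.

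Of the 3 cell cycle genes none passed the test in lola[E76] clones and 2 rose in nerfin-1[159] clones, and of the whole list of 15, 1 rose in lola[E76] clones and 9 in nerfin-1[159] clones. RNA of E2f1, the transcription factor of S phase entry, was 1422, 1583 and 1573 CPM in lola[E76] clones, 2557, 2412 and 2589 CPM in nerfin-1[159] clones and 1144, 1480.1 and 1502 CPM in WT clones. The nerfin-1[159] libraries stood above all others (0.87 ± 0.11, edgeR adjusted p = 1.57e-05), and the gene's peaks of the set were 3R:21619290-21620047 (2.11 in N1, 0.85 in N2) and 3R:21625193-21625531 (1.62 and 1.73), beside 7 other shared peaks. RNA of polo, the mitotic kinase, was 83.7, 82.7 and 49.6 CPM in lola[E76] clones, 79.00, 81.5 and 99.4 CPM in nerfin-1[159] clones and 39.7, 46.6 and 58.7 CPM in WT clones. Its rise in nerfin-1[159] clones (0.84 ± 0.22, edgeR adjusted p = 0.0143) was lost without WT replicate 1 or 2 or nerfin-1[159] replicate 3 (adjusted p up to 0.0846). RNA of Mcm2, a subunit of the replicative helicase, did not pass, with WT libraries spread over 12.2, 42.1 and 75.2 CPM, but it passed in both contrasts without WT replicate 3.

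None of the 5 ribosomal protein genes, 3 glial genes or the JNK phosphatase gene puc near the set passed in either contrast. Of the 84 tested ribosomal protein genes of the whole list, 6 rose and 1 fell in lola[E76] clones, and 1 rose and 4 fell in nerfin-1[159] clones. Of the 11 tested JNK, damage and death genes 4 rose in lola[E76] clones and 3 in nerfin-1[159] clones. Of the 5 tested glial genes 1 rose in lola[E76] clones. RNA of puc was 143, 189 and 231 CPM in lola[E76] clones, 112, 86.3 and 85.03 CPM in nerfin-1[159] clones and 145, 118 and 108 CPM in WT clones, and its log2 difference in lola[E76] clones was 0.60 ± 0.18 with an edgeR adjusted p of 0.0518, which passed the threshold without replicate 1 of any genotype and with DESeq2. Of the ribosomal protein genes, RpLP1 was 2759.9, 2967 and 3024 CPM in lola[E76] clones, 1781, 2038 and 2321 CPM in nerfin-1[159] clones and 2409, 2488 and 2601 CPM in WT clones. Its log2 difference in lola[E76] clones was 0.22 ± 0.10 (edgeR adjusted p = 0.224). The glial gene moody, a receptor of the blood-brain barrier, stood at 14.8, 16.8 and 13.6 CPM in lola[E76], 3.40, 8.78 and 3.73 CPM in nerfin-1[159] and 8.64, 5.00 and 5.87 CPM in WT clones, with a log2 difference of 1.22 ± 0.48 in lola[E76] clones (edgeR adjusted p = 0.165).

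No narrow low-scoring shared peak lay within 1 kb of nerfin-1, ey, Syp, dpn or elav. The nearest were 40106 bp from nerfin-1, 91444 bp from ey, 196348 bp from Syp, 6635 bp from dpn and 60513 bp from elav. These genes had other shared peaks, 1 near nerfin-1, 4 near ey, 8 near Syp and 2 each near dpn and elav. RNA of dpn, a neuroblast factor, was 14.8, 11.8 and 17.4 CPM in lola[E76] clones, 45.02, 31.6 and 41.8 CPM in nerfin-1[159] clones and 1.35, 10.4 and 11.6 CPM in WT clones. Every library of both mutants lay above every WT library, and dpn passed in nerfin-1[159] clones (log2 difference 2.31 ± 0.46, edgeR adjusted p = 0.00186) but not in lola[E76] clones (0.88 ± 0.46, edgeR adjusted p = 0.317). Both ey, a Pax6 gene, and Syp, an RNA-binding protein of late neuroblasts, rose in nerfin-1[159] clones, by 1.18 ± 0.26 (edgeR adjusted p = 0.00475) and 0.72 ± 0.14 (edgeR adjusted p = 0.00123), and elav did not pass. In lola[E76] clones nerfin-1 was 123, 152 and 143 CPM, against 313, 263 and 275 CPM in WT clones (log2 difference -1.03 ± 0.28, edgeR adjusted p = 0.0342), a call lost without any 1 WT or lola[E76] library (adjusted p up to 0.121).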

How the data were processed

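RNA libraries were QuantSeq 3′ libraries, and the authors deposited raw counts per gene. Subread, featureCounts and limma are named, with no role or version, in the submitters' processing notes. The DamID files hold 1 peak list per replicate with the authors' score and FDR for each peak, called on GATC fragments with Dam alone as the comparison and 0.01 as the FDR limit, per the file names. No source used here names the build or the peak caller. The positions lie within the arms of RefSeq's Release 6 plus ISO1 MT gene table, which was used only for gene names, lengths and neighbours. Of the N1 peaks 2383 had a gene end within 1 kb in that table, against 2098 and 2061 after a shift of 5 kb to either side and 1756 and 1789 after one of 100 kb.

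Peaks were paired by an overlap of at least 1 bp, and where a peak overlapped 2 of N2 the higher N2 score was used. A gene was near a peak when its body, or 1 kb on either side, overlapped it. In edgeR 4.0.16 under R 4.3.3, genes passed filterByExpr, were scaled by TMM and fitted with 1 mean per genotype over all 9 libraries. Contrasts used the two-sided quasi-likelihood test with Benjamini-Hochberg adjustment over all 7451 tested genes at 0.05. CPM values of single genes refer to the summed counts of tested genes and are scaled by TMM, and ± marks a standard error. The sums over cell type markers and the CPM of 3 counts refer to all counts of a library, without TMM. The step was tested on simulated data. Replicate numbers did not pair samples: libraries of the same number had correlations of -0.0564 to 0.0232 between their departures from the means of their genotypes. Alternatives used limma 3.58.1 and DESeq2 1.42.0, and peaks and figures Python 3.11.15 with pandas 2.3.3, numpy 2.4.6 and matplotlib 3.10.9.

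The peaks, the 14 gene lists and the rule for naming genes were chosen with earlier results of these data known. The rule named the 8 genes of largest called difference each way in lola[E76] and the 5 each way in nerfin-1[159] clones, among genes near the set with a mean log2 CPM of at least 3 and libraries that did not overlap between genotypes. It also named up to 3 genes per list by expression, the genes elav, pros, dpn, Syp, Imp, ey, chinmo, nerfin-1 and lola in any case, the 8 peaks of highest N2 score, the 5 of lowest N1 score, those at the limits, and the 5 genes with most peaks, with ties at 3 peaks all given. Of 287 list entries 283 matched, and Dl, BarH1, BarH2 and Z4 were not used here. The planned search for motifs and the printing of promoters were not done, as no genome sequence was used here.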

Additional observations from a re-analysis of the deposited data

How the results depend on the processing

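The number of peaks in the set was 873, 1095 and 1067 when an overlap of 50% of the N1 peak was asked for, when the median of narrow peaks was used or when N2 was ranked in place of N1, but 395 with scores below the lower quartile, 664 with widths under 1000 bp and 486 with an FDR under 0.001 in both replicates. Genes near the set numbered 2795 with 5 kb on either side and 670 at that FDR. Called genes near the set, 86 for lola[E76] clones and 121 for nerfin-1[159] clones, were 130 and 185 with 5 kb, 41 and 65 at the stricter FDR and 52 and 64 without genes that had another shared peak. These counts go with different numbers of genes, and the shares of tested genes at 5 kb and at that FDR are not given here. The 52 and 64 were 8.44% and 10.4% of 616 tested genes, where 6.50% and 11.9% of all tested genes were called. The FDR limit, the removal of genes with another peak, and limma voom for single genes were chosen after seeing the data.

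Leaving out 1 library at a time gave 315 to 497 called genes in lola[E76] clones, with 315 both without WT replicate 1 and without WT replicate 2, and 593 to 1008 in nerfin-1[159] clones. Near the set it gave 61 to 90 and 82 to 139. With the replicate number as a replicate block the counts were 431 and 820 over all tested genes and 78 and 117 near the set. DESeq2 called 673 and 1048 genes over all, and 67 genes near the set higher in lola[E76] clones, where edgeR called 44. In both directions together DESeq2 called 116 genes near the set in lola[E76] clones, against 86 with edgeR, and 673 over all, against 484. The DESeq2 count of higher genes over all is not given here. Of 55 called pairs of named gene and contrast 40 passed the threshold in every such omission of a library. The call of pros in lola[E76] clones was gained with limma voom and without the filter on low counts, where edgeR's prior degrees of freedom were infinite, against 12.6 with the filter. That of puc in lola[E76] clones was gained under both, with DESeq2 and with DESeq2 size factors. In nerfin-1[159] clones calls were gained for chinmo and RpLP1 with limma voom, without the filter and with the replicate block, for Mcm2 with limma voom and without the filter, for ITP and mam without the filter, and for ITP, cer and RpLP1 with DESeq2, and in lola[E76] clones for klu and opa without the filter. Omission of single libraries gained calls in lola[E76] clones for pros (WT replicate 3 or lola[E76] replicate 1), puc (replicate 1 of any genotype), polo (lola[E76] replicate 3), and Mcm2 and CG3168 (WT replicate 3). It gained those of chinmo (WT replicate 3 or nerfin-1[159] replicate 2), ttk and mam (nerfin-1[159] replicate 1), RpLP1 (nerfin-1[159] replicate 3), ITP (WT replicate 2), Mcm2 (WT replicate 3) and cer (lola[E76] replicate 1) in nerfin-1[159] clones. The replicate block also ended the calls of Myo81F, l(2)41Ab, Psc and nerfin-1 in lola[E76] clones and of opa and CG33639 in nerfin-1[159] clones.

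Signs turned for 17 log2 differences of named genes, none of which passed the test, when single libraries were left out. In lola[E76] clones they were ct (-0.26 to 0.06), KCNQ (-0.84 to 0.66), Dscam2 (-0.09 to 0.16), CTCF (-0.10 to 0.29), Su(var)3-9 (-0.12 to 0.11), RpL28 (-0.08 to 0.00), Syp (-0.19 to 0.12), Nep3 (-0.23 to 0.12), CG43693 (-0.27 to 1.10) and lncRNA:CR46003 (-0.03 to 0.23). For nerfin-1[159] they were elav (-0.17 to 0.00), KCNQ (-0.50 to 0.69), Psc (-0.12 to 0.07), gcm (-0.23 to 0.33), Gs2 (-1.03 to 0.17), Pdk (-0.37 to 0.04) and Mur2B (-0.41 to 0.15). With limma voom KCNQ was at 0.06 for lola[E76] and at 0.19 for nerfin-1[159]. The cause was not tested. The motif alternatives were not run. The depth of 3465601 to 5200223 counts limits genes near 3 counts, which equal 0.577 to 0.866 CPM. Peak scores carry no error of their own, and 2 replicates give no test of a single peak.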

Other observations

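The peaks of the set with the lowest authors' FDR in N2 were chosen here after their values were seen. They lay in Imp (X:10804998-10805809, N2 FDR 6.86e-42), in slp1, a forkhead factor of the medulla temporal series (2L:3824858-3825716, N2 FDR 4.58e-36), and in pnut (2R:8238966-8239509, N2 FDR 1.11e-34). Their FDR in N1 was 4.19e-04, 5.36e-05 and 0.00283, and their scores were 2.39, 2.27 and 2.39 in N1 and 2.23, 1.61 and 3.02 in N2. The narrowest peaks of the set, also chosen after their values were seen, were 33, 49 and 59 bp wide and overlapped no gene body, and N2 covered each of them whole.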
